A study of Mus musculus with 24 samples.

Results

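The 8 genes described here are glucocorticoid response genes, taken by symbol from the 16118 genes measured by RNA sequencing in the inguinal fat of mice, a white fat depot under the skin. They are Nr3c1, Hsd11b1, Fkbp5, Tsc22d3, Zbtb16, Sgk1, Mt1 and Mt2, and all 8 passed the filter on low counts that left 16005 genes for testing. Poly(A) RNA of 24 mice was sequenced, 1 library per mouse, in 6 groups of 4 animals. Males and females were taken at postnatal day 21, and males and females at day 28 under 2 schedules. Standard weaning (SW) means that pups had left the mother at day 21, and delayed weaning (DW) that they were still with her. The day 21 animals carry the label SW as well, although they were taken at the age of separation, so they serve here as the starting point of both day 28 groups. Day 21 libraries are titled with day 28, so their age was taken from the age label and the description. No genotype, transgene or drug is named for any group. Strain, litter and the hour at which tissue was taken are not given in the sources used here. The genes were listed to ask whether separation from the mother left a stress signal in the fat depot.

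Glucocorticoids, mainly corticosterone in the mouse, are released by the adrenal gland in a daily rhythm and under stress. In the cell they bind the glucocorticoid receptor, which is held ready by heat shock proteins and their partners, moves to the nucleus and raises the transcription of a set of target genes. In fat the hormone acts on the formation of adipocytes and on the storage and release of lipid, and the enzyme 11β-hydroxysteroid dehydrogenase type 1 can regenerate active hormone from its inactive form within the tissue. Nr3c1 encodes the receptor and Hsd11b1 that enzyme. Fkbp5 encodes a partner of the receptor complex that lowers its affinity for the hormone and is itself induced by it, a short feedback loop. Tsc22d3 encodes the anti-inflammatory protein GILZ, Zbtb16 the zinc finger transcription factor PLZF and Sgk1 a serum- and glucocorticoid-regulated kinase, all induced by the hormone. Mt1 and Mt2 encode metallothioneins, small metal-binding proteins whose genes respond both to zinc and to glucocorticoids.

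Levels are given as the deposited normalised read counts, in which the reads of a gene were divided by a factor of the sample and not by gene length, so a level is compared between animals and not between genes. Differences are on the scale log2(normalised read count + 1) from a single limma fit over the 24 libraries, with standard error (SE), and called means an adjusted p-value (Benjamini-Hochberg over the 16005 genes) under 0.05. Reads in listed genes ran from 57600711 to 302145813 per library, and the members were read between 79 times (the lowest Mt2 library) and 58188 times (the highest Zbtb16 library). The adipocyte markers were present in every library, with Adipoq from 787 to 1527 and Fabp4 from 9997 to 17456 normalised read counts. DW females 82 and 83 stood apart from the other DW females, with a profile correlation as low as 0.859 within that group. Day 21 male 53 and SW male 84 had fewer detected genes (14054 and 15497) than most libraries. Calls of the 8 genes that were lost without these animals are given both ways, while calls of other genes are given from the fit with all animals. Since the tissue was sequenced in bulk, fewer cells of a type and less RNA per cell cannot be told apart. Where all animals of a group lay above all of another, the share of all tested genes that did so was not counted.

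**Figure D1:**
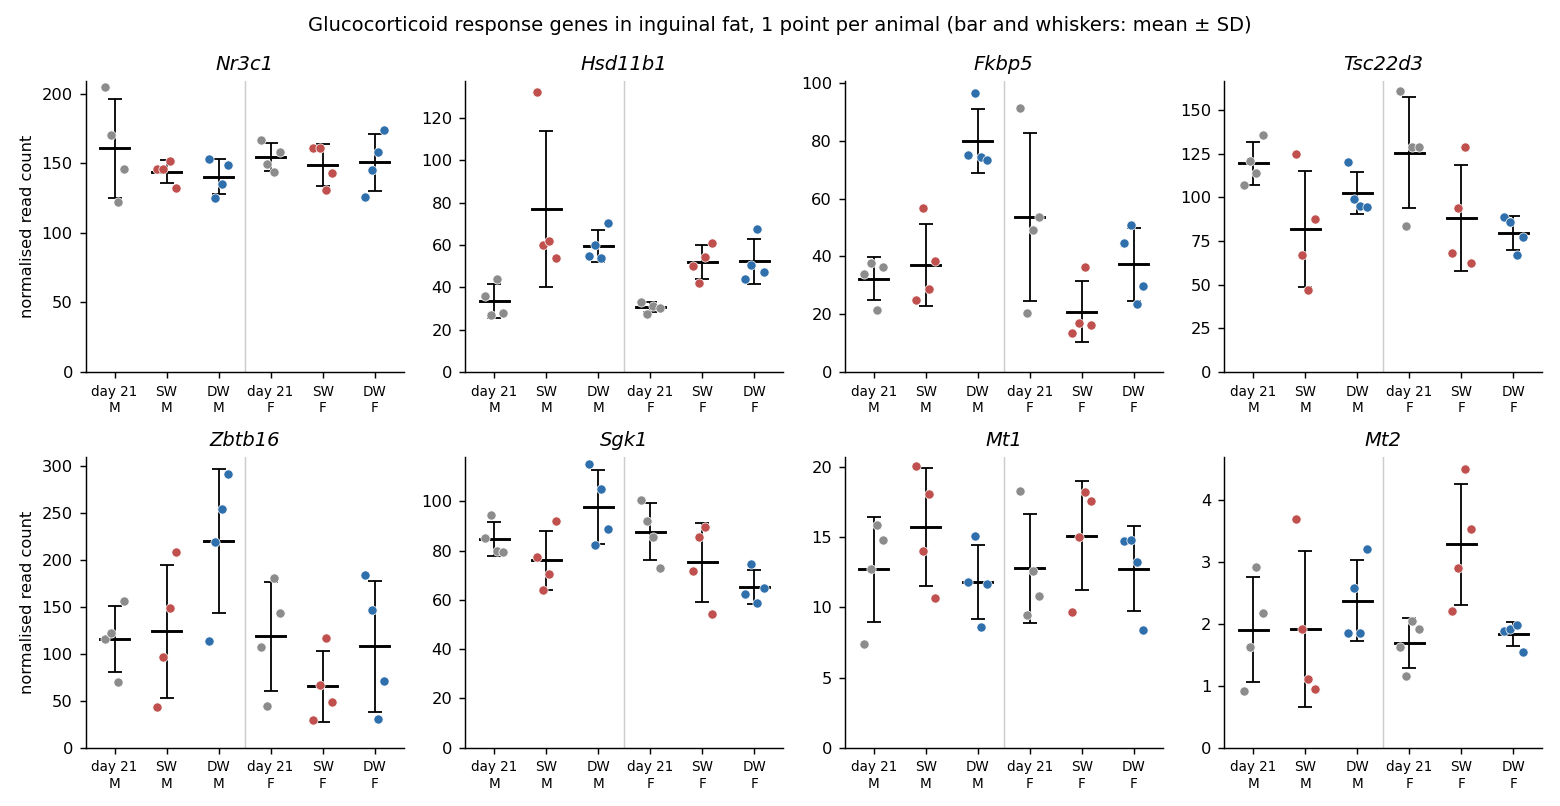
Normalised read counts of the 8 genes in each animal (points), with the mean and SD of each group of 4 (bars and whiskers), for males (M) and females (F) at day 21, at day 28 after separation (SW) and at day 28 with the mother (DW). Fkbp5 lay between 24.8 and 56.6 in SW males and between 73.5 and 96.4 in DW males, and Hsd11b1 lay higher at day 28 than at day 21 in both sexes.

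Separation from the mother was compared with staying with her at day 28. None of the 8 genes was called higher in the separated animals. Fkbp5 was lower after separation, with a log2 difference of -1.0 over both sexes, and it was the single member called in any of the 3 versions of this comparison. Zbtb16 had the next largest differences, in the same direction, with a wide spread between animals, and was not called. The receptor gene Nr3c1 lay close to 0 in both sexes, and Tsc22d3, Sgk1, Hsd11b1, Mt1 and Mt2 were not called. In males 0 of the 8 members were called, against a background of 0.256% of all tested genes, and in females 0 of 8 against 1.27%. Over the mean of both sexes 1 of 8 was called against 2.21%. The median difference of the members was -0.32 in males, 0.04 in females and -0.04 over both sexes, beside medians of -0.00, 0.02 and 0.01 over all tested genes. At an unadjusted p under 0.05, 2 members passed in males (Fkbp5 and Sgk1, both lower after separation) and 2 in females (Fkbp5 lower and Mt2 higher). Of all 16005 tested genes, 1110 passed that threshold in males and 3019 in females.

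Fkbp5, on chromosome 17 (chr17:28399094-28517527, minus strand, GENCODE M21 on GRCm38), was the called member. In SW males its normalised read counts were 56.6, 28.6, 38.5 and 24.8 in animals 78, 84, 85 and 124. In DW males they were 75.0, 96.4, 74.5 and 73.5 in animals 79, 80, 86 and 87. Every DW male was above every SW male, and the mean was 79.9 ± 11.1 (SD, n = 4) with the mother and 37.1 ± 14.2 (SD, n = 4) after separation, 2.15-fold higher in DW. How many of all tested genes separated these groups in this way was not counted. In SW females the values were 13.5, 17.0, 36.5 and 16.4, and in DW females 44.7, 50.8, 23.5 and 29.9. The female groups overlapped through SW female 75, with 36.5, which lay above DW females 82 and 83, and the DW mean was 1.79-fold the SW mean. The difference was -1.15 (SE 0.355, adjusted p = 0.307, limma) in males and -0.85 (SE 0.355, adjusted p = 0.220, limma) in females. Over both sexes, 8 animals against 8, it was -1.0 (SE 0.251, 95% interval -1.52 to -0.48, adjusted p = 0.0353, limma). The test of a sex difference in this effect gave -0.30 (SE 0.502, adjusted p = 0.885, limma). Within runs of neighbouring animal numbers the sign was the same, -0.58 and -1.13 in males and -1.19 and -0.66 in females (numbers 73 to 80 and 81 to 87), with 1 to 3 animals on a side.

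The call of Fkbp5 over both sexes lay near the threshold, while the size of the difference moved little. Leaving out each of the 16 animals in turn kept the difference between -1.15 and -0.91, and the adjusted p ran from 0.0125 to 0.0789 and stayed under 0.05 in 4 of the 16 fits, those without SW male 78, SW female 75, DW female 76 or DW female 82. It was 0.0609 without day 21 male 53 and SW male 84 and 0.0327 without DW females 82 and 83, and edgeR and DESeq2 on the recovered reads gave 0.0457 and 0.00436. Markers of other cells were not called between the same groups, 0 of 8 for mammary epithelium and 0 of 8 for skeletal muscle in males, in females and over both sexes. The median differences of these 2 lists in females were still 1.04 and 3.26. Of 8 adipocyte markers, 1 was called lower after separation over both sexes, where 2.21% of all tested genes were called. In each sex alone 0 of the 8 were called. The summed level of 8 mammary epithelial markers was 257 to 356 in SW females against 98.3 to 215 in DW females, with none of them at 0, while in day 28 males it was at most 41.0 and Csn3, Elf5, Krt5, Krt8 and Krt14 were at 0 in some libraries. The summed level of 8 skeletal muscle markers ran from 336 to 3093 in SW females and from 3.54 to 1816 in DW females. With muscle, mammary and lymphocyte scores as covariates the Fkbp5 difference was -1.06 with an adjusted p of 0.0946 (limma).

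**Figure D2:**
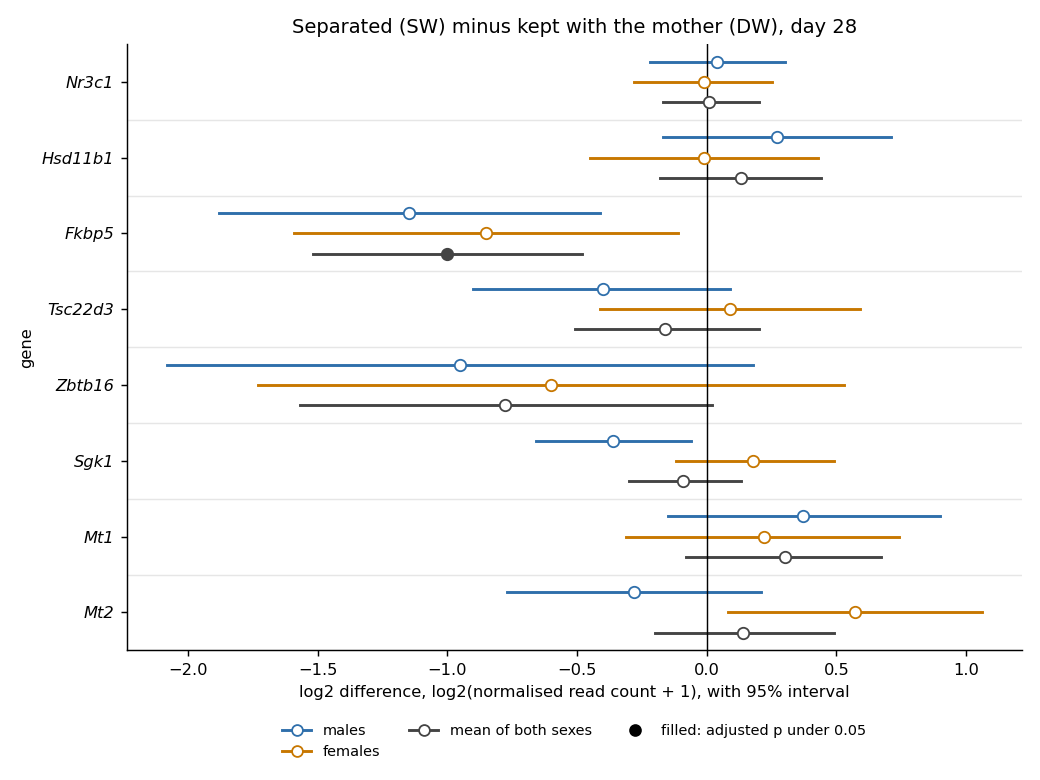
Difference between separated (SW) and unseparated (DW) animals at day 28 for the 8 genes (log2 scale), with points for males, females and the mean of both sexes and lines for the 95% interval. A filled point marks an adjusted p under 0.05, which Fkbp5 over both sexes alone reached (-1.0).

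The 250 bases before the Fkbp5 start in the RefSeq table hold neither of the motifs searched for, and they are shown for comparison with the Sgk1 and metallothionein promoters below. The motifs, searched on both strands in windows of 250 bases before to 50 after a start, were the glucocorticoid response element hexamer AGAACA, the palindromic element made of this hexamer and its reverse complement spaced by 3 bases, and the metal response element cores TGCACNC and TGCGCNC. The palindrome contains the hexamer on each strand, so a palindrome is also counted as hexamers. The table (build GRCm38.p6) gave 13 promoters for 6 of the 8 members. A match is a run of letters, not a shown binding site, and the absence of a match says only that those letters are not in the window. The Fkbp5 window is chr17:28486100-28486399 on the minus strand.
Fkbp5: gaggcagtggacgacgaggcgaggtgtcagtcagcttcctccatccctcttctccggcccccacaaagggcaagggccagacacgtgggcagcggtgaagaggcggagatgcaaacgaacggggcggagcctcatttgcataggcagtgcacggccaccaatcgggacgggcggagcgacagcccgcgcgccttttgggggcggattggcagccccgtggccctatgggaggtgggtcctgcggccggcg

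Zbtb16 had the widest spread of the 8 genes, 29.2 to 292 over the 24 animals, a 10.0-fold range. In SW males its normalised read counts were 96.3, 149, 208 and 43.1, and in DW males 114, 219.5, 254 and 292. In SW females they were 29.2, 66.7, 117 and 48.2, and in DW females 184, 147, 30.9 and 71.3. The group means were lower after separation in both sexes, 124 ± 70.8 against 219.9 ± 76.7 in males and 65.4 ± 37.9 against 108 ± 69.6 in females (SD, n = 4), but the groups overlapped in each sex. The differences were -0.95 (SE 0.544) in males, -0.60 (SE 0.544) in females and -0.78 (SE 0.385) over both sexes. None was called (adjusted p = 0.818, 0.544 and 0.301, limma), and the 95% interval over both sexes ran from -1.57 to 0.02. DW females 82 and 83 were the lowest of their group, and without them the female difference was -1.49.

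Sgk1 encodes a kinase that controls ion channels and glucose transport, and its gene is on chromosome 10 (chr10:21882184-21999903, plus strand, GENCODE M21 on GRCm38). SW males gave 64, 70.6, 91.9 and 77.5 normalised read counts and DW males 115, 82.2, 105 and 88.9. SW females gave 71.6, 85.4, 89.5 and 54.3 and DW females 62.3, 74.6, 58.8 and 64.8. The groups overlapped in both sexes, and the means differed in opposite directions, lower after separation in males (76.0 ± 11.9 against 97.7 ± 14.8) and higher in females (75.2 ± 15.9 against 65.1 ± 6.77, SD, n = 4). The differences were -0.36 (SE 0.145, adjusted p = 0.594, limma) and 0.18 (SE 0.145, adjusted p = 0.478, limma), and the test of the sex difference between them gave -0.54 (SE 0.205, unadjusted p = 0.0148, adjusted p = 0.802, limma).

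Of the 6 Sgk1 starts in the RefSeq table, the window chr10:21993640-21993939 (GRCm38.p6, plus strand) holds the exact palindromic element at bases 62 to 76 of the window. That element is in 3 of 32851 promoters (0.00913%), and the single hexamer AGAACA in 19.0% of them. Its 250 bases before the start are shown because they carry the textbook element of this pathway next to a gene that was not called between the weaning groups. Capitals mark the palindrome and a further copy of the hexamer.
Sgk1: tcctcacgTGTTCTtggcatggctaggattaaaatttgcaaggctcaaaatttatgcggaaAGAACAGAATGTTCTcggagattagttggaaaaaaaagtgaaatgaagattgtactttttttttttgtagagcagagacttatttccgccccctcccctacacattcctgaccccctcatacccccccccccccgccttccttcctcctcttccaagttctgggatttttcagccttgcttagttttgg

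Tsc22d3 gave 67.2, 47.2, 87.5 and 125 normalised read counts in SW males and 120.2, 99.4, 95.3 and 94.8 in DW males. It gave 67.9, 93.7, 129 and 62.3 in SW females and 88.9, 85.8, 66.9 and 77.4 in DW females. SW animals were more scattered than DW animals in both sexes, with an SD of 33.4 against 12.0 in males and 30.4 against 9.82 in females, and the groups overlapped. The differences were -0.40 (SE 0.240) in males and 0.09 (SE 0.240) in females, and neither was called (adjusted p = 0.842 and 0.857, limma). Without SW male 84, the lowest of its group, the male difference was -0.17.

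The receptor gene and the gene of the enzyme that regenerates its hormone were not called between the weaning groups. Nr3c1 had the narrowest range of the members over the 24 animals, 122 to 205 normalised read counts or 1.68-fold, with group means from 141 ± 13.2 in DW males to 161 ± 35.3 in day 21 males (SD, n = 4). Its SW minus DW difference was 0.04 (95% interval -0.22 to 0.30) in males and -0.01 (-0.28 to 0.25) in females. Hsd11b1 had means of 76.8 ± 37.0 in SW males and 59.6 ± 7.60 in DW males, and of 51.8 ± 7.96 in SW females and 52.3 ± 10.6 in DW females (SD, n = 4). Its differences were 0.27 (95% interval -0.17 to 0.71) in males and -0.01 (-0.45 to 0.43) in females, so changes of these sizes in either direction are within the intervals.

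Mt1 was measured from 888 to 3002 reads per library and Mt2 from 79 to 614. Mt1 lay between 7.41 and 20.1 normalised read counts over the 24 animals, and its weaning groups overlapped in both sexes, with differences of 0.37 (SE 0.253) in males and 0.22 (SE 0.253) in females. Mt2 gave 2.21, 2.89, 4.50 and 3.52 in SW females and 1.89, 1.92, 1.98 and 1.54 in DW females. Every SW female was above every DW female, with means of 3.28 ± 0.971 and 1.83 ± 0.198 (SD, n = 4), 1.79-fold apart. How many of all tested genes separated the female groups in this way was not counted. In males the values were 1.91, 1.11, 0.945 and 3.69 after separation and 1.85, 2.58, 1.85 and 3.21 with the mother, which overlapped. The Mt2 difference was 0.57 (SE 0.238, unadjusted p = 0.0252, adjusted p = 0.220, limma) in females and -0.28 (SE 0.238, adjusted p = 0.939, limma) in males, and the test of the sex difference gave -0.85 (SE 0.336, adjusted p = 0.802, limma). At the level of Mt2 the added 1 of the log2 scale understates a change. Neither metallothionein was called.

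The metallothionein genes lie beside each other on chromosome 8, with RefSeq starts 6471 bases apart. The Mt2 window (chr8:94172368-94172667, GRCm38.p6, plus strand) holds 4 metal response element cores, at bases 28 to 34, 123 to 129, 201 to 207 and 255 to 261. The Mt1 window (chr8:94178839-94179138, plus strand) holds 3, at bases 228 to 234, 253 to 259 and 271 to 277. At least 1 core was found in 25.7% of the 32851 promoters and 4 or more in 0.517%. Neither window holds the hexamer AGAACA. The 250 bases before each start are shown with the cores in capitals, since the metallothioneins respond to zinc; cores after the start are not printed. Among the other members whose promoters were searched, the Hsd11b1 window holds 1 core and 1 of the 6 Sgk1 windows holds 1.
Mt2: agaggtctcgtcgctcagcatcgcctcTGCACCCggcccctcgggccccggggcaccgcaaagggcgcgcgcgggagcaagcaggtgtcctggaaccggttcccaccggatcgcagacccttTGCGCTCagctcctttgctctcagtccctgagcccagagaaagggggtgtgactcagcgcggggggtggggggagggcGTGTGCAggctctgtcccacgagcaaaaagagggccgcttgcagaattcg
Mt1: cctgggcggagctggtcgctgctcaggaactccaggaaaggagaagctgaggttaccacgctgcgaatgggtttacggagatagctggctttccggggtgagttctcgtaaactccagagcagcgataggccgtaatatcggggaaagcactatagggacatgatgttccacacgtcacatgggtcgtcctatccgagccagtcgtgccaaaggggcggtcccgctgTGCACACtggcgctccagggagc

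The other genes of the pathway gave no call between separated and unseparated animals. Of all tested genes, 0.256% were called in males, 1.27% in females and 2.21% over both sexes. At those shares, lists of this size would hold few calls or none. Of 32 further genes known to be induced by glucocorticoids, 0 were called in males, in females or over both sexes (limma). At an unadjusted p under 0.05, 7, 6 and 10 of the 32 passed, beside 1110, 3019 and 2781 of all 16005 tested genes. The female count lay near the share of all genes, and the counts in males and over both sexes lay above it. Whether the list as a whole differed was not tested. The median difference of the 32 was -0.16 in males, with 26 of 32 negative, and 0.03 in females, with 15 of 32 negative. Over all tested genes the medians were -0.00 and 0.02, and the share of negative differences was not counted. The differences of the 32 ran from -0.96 to 0.38 in males and from -0.88 to 0.85 in females. Cdkn1a, which encodes the cell cycle inhibitor p21 and was picked out after its values were seen, had the smallest adjusted p of this list in males (-0.96, SE 0.221, adjusted p = 0.0778, limma). Of 16 genes for receptor partners, hormone metabolism and cofactors, 0 were called in any version of the comparison (smallest adjusted p = 0.066, in females). Of 12 tested genes for zinc and metal handling, 0 were called. Of 14 clock genes and of 10 immediate early genes, which respond within minutes to many stimuli, 0 were called either.

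**Figure D3:**
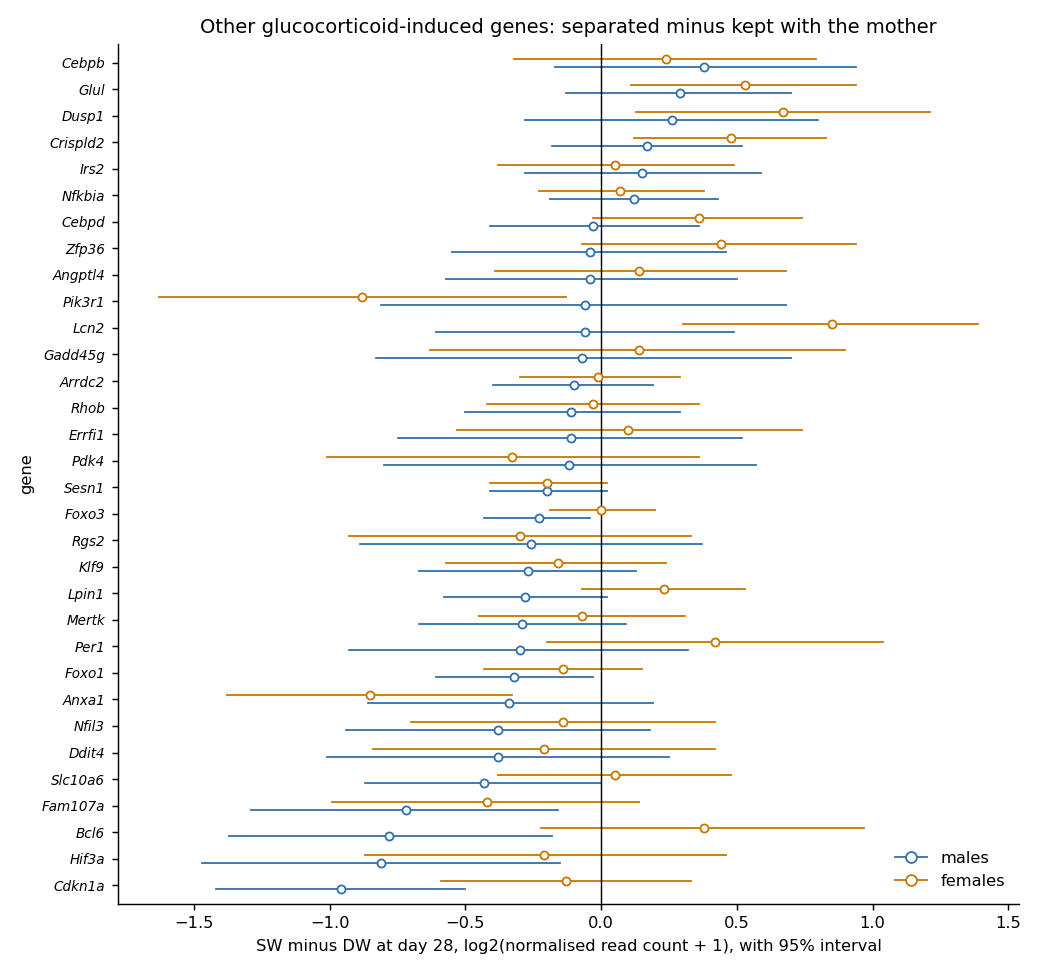
Difference between separated (SW) and unseparated (DW) animals at day 28 for 32 other genes induced by glucocorticoids, in males and females, with 95% intervals (log2 scale), ordered by the male difference. In males 26 of the 32 points lie below 0 and in females 15, and none had an adjusted p under 0.05. The share of all tested genes below 0 was not counted.

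The authors' deposited table gives its own fold changes and a column of adjusted p-values. In the authors' deposited table Fkbp5 was higher with the mother by a log2 ratio of 1.105 in males (0.00169) and of 0.837 in females (0.0175). The authors' deposited table also puts Sgk1 in males (log2 ratio of DW over SW 0.361, 0.0228) and Mt2 in females (-0.84, 0.0193) under 0.05. Those values lie near the unadjusted p-values of the limma fit for the same genes (0.0218 for Sgk1 and 0.0252 for Mt2), and not near its adjusted ones.

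From day 21 to day 28 Hsd11b1 rose in both sexes under both weaning schedules. Its mean was 1.70-fold to 2.28-fold that of day 21. Fkbp5 was called in 2 of the 4 age comparisons. Its mean in DW males was 2.47-fold that of day 21 males, and its mean in day 21 females was 2.58-fold that of SW females. Of the 8 members, 1 was called in SW males against 11.9% of all tested genes, 2 in SW females against 11.6%, 2 in DW males against 15.0% and 1 in DW females against 12.1%. These comparisons share their day 21 animals between SW and DW, so they are not independent of each other.

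Hsd11b1 is on chromosome 1 (chr1:193221634-193264075, minus strand, GENCODE M21 on GRCm38). At day 21 its normalised read counts were 36.1, 26.8, 44 and 27.7 in males and 33.2, 27.4, 31.1 and 30.4 in females. At day 28 SW males gave 59.8, 61.6, 53.9 and 132 and DW males 54.6, 59.9, 53.6 and 70.2. SW females gave 49.8, 42.0, 54.5 and 60.9 and DW females 43.7, 50.5, 67.6 and 47.3. In each sex every day 28 animal was above every day 21 animal, and the share of all tested genes that did so was not counted. SW male 124, with 132, stood far above the rest of its group. The rise was 1.10 (SE 0.213, adjusted p = 0.00214, limma) in SW males and 0.83 (SE 0.213, adjusted p = 0.0128, limma) in DW males. It was 0.74 in both SW females (SE 0.213, adjusted p = 0.0253, limma) and DW females (SE 0.213, adjusted p = 0.0254, limma). Without SW male 124 the SW male rise was 0.80 and still called, while without DW male 87 the DW male rise was 0.75 with an adjusted p of 0.0512 (limma).

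The female rises of Hsd11b1 were also near the threshold, and leaving out day 21 female 36, 55 or 56 or SW female 75 or 81 took the SW female call away (adjusted p up to 0.0883). For DW females leaving out day 21 female 36 or 56 or DW female 82 did so, and without both females 82 and 83 the rise was 0.61 with an adjusted p of 0.152 (limma). Macrophage markers rose with Hsd11b1. Of 8 markers, 6 were called higher in SW males, 7 in SW females, 8 in DW males and 7 in DW females, beside 11.9%, 11.6%, 15.0% and 12.1% of all tested genes. Their summed level was 309 to 445 over the day 21 animals and 613 to 995 over the day 28 animals, with no marker at 0. Other lists of 8 moved too. In the same order, 3, 1, 5 and 1 endothelial markers were called higher and 3, 1, 3 and 1 lymphocyte markers lower. Muscle had 7 higher in SW and in DW males, and mammary epithelium 6 in SW and 1 in DW females. The part of any of these cells in the Hsd11b1 rise was not tested. The genes most alike to Hsd11b1 over the 24 libraries were Cd209b, Lyz2 and Cd33, with Pearson r of 0.82, 0.80 and 0.79, and of 0.32, 0.62 and 0.27 once group means were removed.

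Fkbp5 at day 21 was 33.9, 37.6, 21.5 and 36.2 in males and 91.5, 20.6, 49.2 and 53.7 in females. Day 21 females covered a range that held most of the day 28 animals, with 91.5 in female 30 and 20.6 in female 36. DW males were all above day 21 males, with a difference of 1.30 (SE 0.355, adjusted p = 0.0175, limma), and without day 21 male 53 it was 1.12 with an adjusted p of 0.0681. SW males differed from day 21 males by 0.16 (SE 0.355, adjusted p = 0.823, limma). SW females were lower than day 21 females by -1.25 (SE 0.355, adjusted p = 0.0224, limma), although the groups overlapped. Without day 21 female 30 that difference was -0.94 with an adjusted p of 0.106, and the call was also lost without day 21 female 55 or 56 or SW female 73, 74 or 81, and with the compared groups alone in the fit (adjusted p = 0.0616, limma). DW females differed from day 21 females by -0.40 (SE 0.355, adjusted p = 0.494, limma), and by 0.01 without DW females 82 and 83. The summed level of the 8 muscle markers was 3.29 to 519 in day 21 males and 303 to 6573 in DW males, with 7 of 8 called higher, and with muscle, mammary and lymphocyte scores as covariates neither Fkbp5 call held (adjusted p = 0.0934 in DW males and 0.112 in SW females, limma). The test of whether the SW change differed between the sexes gave 1.41 (SE 0.502, unadjusted p = 0.0102, adjusted p = 0.301, limma). In order of their means the groups ran from DW males (79.9) through day 21 females (53.7), DW females (37.2), SW males (37.1) and day 21 males (32.3) to SW females (20.8), and each neighbouring pair in that order overlapped.

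**Figure D4:**
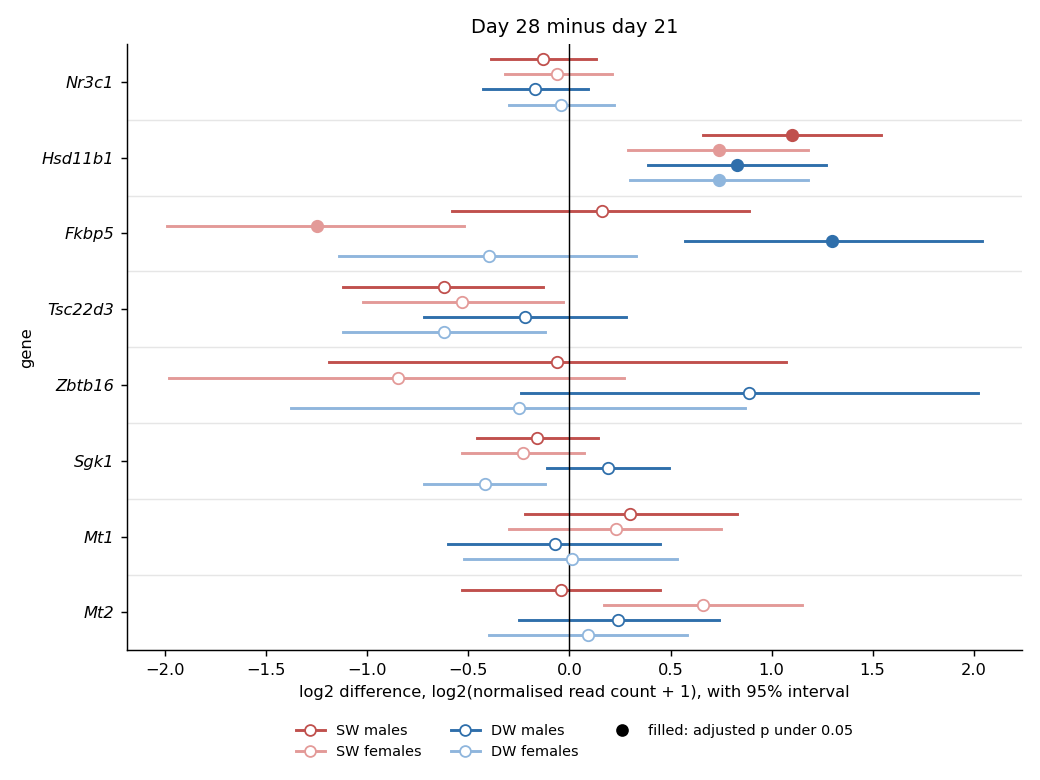
Difference between day 28 and day 21 for the 8 genes (log2 scale), in males and females after separation (SW) or with the mother (DW), with 95% intervals. Filled points have an adjusted p under 0.05, which Hsd11b1 reached in all 4 comparisons (0.74 to 1.10) and Fkbp5 in DW males (1.30) and SW females (-1.25).

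The other members were not called between the ages, though some passed in alternative fits. The share of all tested genes that passed in each of those fits is not given here. Tsc22d3 was lower at day 28 in each of the 4 comparisons, by -0.62 and -0.53 in SW males and females and by -0.22 and -0.62 in DW males and females (SE 0.240, adjusted p from 0.0919 to 0.575, limma). Its day 21 values were 107, 121, 114 and 136 in males and 161, 83.6, 129 and 129 in females, which overlapped the day 28 values of each group. Without SW male 124 the SW male difference was -0.86 and passed (adjusted p = 0.0209), and without day 21 female 36 the DW female difference was -0.80 and passed (adjusted p = 0.0445). With weighted libraries Tsc22d3 passed in SW males (-0.57, adjusted p = 0.0153, limma) and in DW females (-0.50, adjusted p = 0.0281, limma). Mt2 in SW females, all above day 21 females (1.62, 1.15, 2.05 and 1.92), differed by 0.66 (SE 0.238, adjusted p = 0.0786, limma), and passed with weighted libraries (0.59, adjusted p = 0.0405) and with the compared groups alone in the fit (adjusted p = 0.0265). Sgk1 in DW females differed by -0.42 (SE 0.145, adjusted p = 0.0625, limma), and passed without day 21 female 56 or DW female 77 (adjusted p = 0.0429 and 0.0389). Nr3c1 differences lay between -0.17 and -0.04, and with weighted libraries they were -0.28 in SW males (adjusted p = 0.0127, limma) and -0.26 in DW males (adjusted p = 0.00914, limma). Differences of Mt1 lay between -0.07 and 0.30 and those of Zbtb16 between -0.85 and 0.89.

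Some other known targets changed with age. Of 32, 2 rose and 0 fell in SW males against 11.9% of all tested genes called in either direction, and 3 rose and 5 fell in SW females against 11.6%. In DW males 3 rose and 1 fell against 15.0%, and in DW females 0 rose and 1 fell against 12.1%. The called share lay above that of all genes in SW females and below it in the other 3 comparisons. Angptl4, which encodes an inhibitor of lipoprotein lipase, rose by 1.21 in SW males (SE 0.257, adjusted p = 0.00423, limma) and by 1.24 in DW males (SE 0.257, adjusted p = 0.00332, limma). Irs2, an adaptor of insulin signalling, rose by 0.73 in SW males (adjusted p = 0.0277, limma). In SW females Lcn2, which encodes lipocalin 2, rose by 0.92, while Fam107a fell by 1.23, Hif3a by 1.14, Cdkn1a by 0.75 and the insulin-regulated transcription factor gene Foxo1 by 0.49 (adjusted p from 0.00415 to 0.0291, limma). Lpin1, which encodes the phosphatidate phosphatase lipin 1, rose by 0.58 in DW males (adjusted p = 0.0103, limma) and fell by 0.55 in DW females (adjusted p = 0.0156, limma). In DW males Mertk, a receptor for the uptake of dying cells, rose by 0.58 and the transcription factor gene Cebpb fell by 0.99.

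The genes that hold and supply the receptor moved in both directions. Of 16, 3 rose and 3 fell in SW males (11.9% of all tested genes were called), 1 rose and 0 fell in SW females (11.6%), 3 rose and 3 fell in DW males (15.0%), and 0 rose and 4 fell in DW females (12.1%). The called share lay below that of all genes in SW females. H6pd, whose enzyme makes the cofactor for the product of Hsd11b1, rose by 0.55 in SW males (SE 0.131, adjusted p = 0.00864, limma) and by 0.78 in DW males (SE 0.131, adjusted p = 0.000715, limma). Nr3c2, the gene of the mineralocorticoid receptor, which also binds corticosterone, rose by 0.96 in SW males (SE 0.238, adjusted p = 0.0122, limma). The drug and steroid exporter gene Abcb1a rose by 0.40 in SW males, 0.31 in SW females and 0.47 in DW males. The chaperone and co-chaperone genes that were called all fell. Hspa4 fell by 0.52 in SW males and in DW males and by 0.34 in DW females, and Stip1 fell by 0.48 in SW males and 0.82 in DW females. Hsp90aa1 fell by 0.65 in SW males and Ptges3 by 0.74 in DW males. In DW females Fkbp4, a partner that competes with the protein of Fkbp5, fell by 1.04 (SE 0.175, adjusted p = 0.000640, limma) and Hsp90ab1 by 0.63. DW females 82 and 83 stood apart from their group, and the falls of these genes without them were not examined. In the metal list of 12 tested genes, 3, 2, 3 and 1 rose and 0, 0, 1 and 0 fell in the same order of groups, beside the same shares of all genes, and the called share in DW females lay below that of all genes. Hmox1, the gene of heme oxygenase 1, rose in all 4 groups by 0.53 to 0.67, and the zinc importer gene Slc39a8 rose by 1.4 in SW males, 1.10 in SW females and 1.03 in DW males.

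Males and females were also compared. At day 21, 0 of the 8 members differed between the sexes against 0.356% of all tested genes, and in SW animals 0 of 8 against 3.54%. In DW animals 1 of 8 differed against 2.46%, and that was Sgk1. Each DW male was above each DW female for Sgk1 (82.2 to 115 against 58.8 to 74.6), a 1.5-fold ratio of means and a difference of 0.57 (SE 0.145, adjusted p = 0.0349, limma). The call did not hold with muscle, mammary and lymphocyte scores as covariates (0.18, adjusted p = 0.771), without DW females 82 and 83 (0.50, adjusted p = 0.294) or with the DW groups alone in the fit (adjusted p = 0.0837). It was also lost without DW male 79, 86 or 87 or DW female 82 or 83, with an adjusted p of up to 0.134. Fkbp5 had a mean in DW males 2.14-fold that of DW females with no overlap, a difference of 1.13 (SE 0.355, adjusted p = 0.0933, limma, and 0.0366 with DESeq2), and Zbtb16 differed by 1.23 (SE 0.544, adjusted p = 0.219, limma). Without DW females 82 and 83 these differences were 0.72 (adjusted p = 0.652, limma) and 0.34 (adjusted p = 0.917, limma). Tsc22d3 did not overlap between DW males and DW females either, with 94.8 to 120.2 against 66.9 to 88.9. It differed by 0.36 (SE 0.240, adjusted p = 0.415, limma) and was not called. How many of all tested genes separated the DW sexes in this way was not counted. No member had a weaning effect that differed between the sexes (0 of 8 against 0.0187% of all genes, smallest adjusted p = 0.802) or an SW age change that did so (0 of 8 against 1.03%, smallest adjusted p = 0.301, limma).

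Few pairs of members moved together from animal to animal. After group means were removed, 28 pairs of members were correlated over the 24 animals, with permutation p-values of 100000 draws adjusted over the 28. Fkbp5 and Zbtb16 gave a Pearson r of 0.67 (permutation p = 0.00329, adjusted p = 0.0461) and a Spearman rho of 0.61 (permutation p = 0.0114, adjusted p = 0.159). Mt1 and Mt2 gave a Pearson r of 0.68 (permutation p = 0.00163, adjusted p = 0.0456) and a Spearman rho of 0.63 (permutation p = 0.00678, adjusted p = 0.159). These 2 pairs passed on Pearson's r, and no pair passed on Spearman's rho. Without the 2 animals farthest from the median of the first gene, r was 0.69 for Fkbp5 and Zbtb16 and 0.57 for Mt1 and Mt2. Fkbp5 with Tsc22d3 gave 0.51 (permutation p = 0.0501, adjusted p = 0.196) and with Sgk1 0.20 (permutation p = 0.436, adjusted p = 0.642). Nr3c1 and Mt1 also moved with the GC content of a library, given as the correlation across genes between the GC content of transcripts and the deviation of a library from the mean of all libraries. Over the 24 animals, r of that index with the member within groups was -0.66 for Nr3c1 and 0.53 for Mt1, beside 0.15 for Fkbp5.

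**Figure D5:**
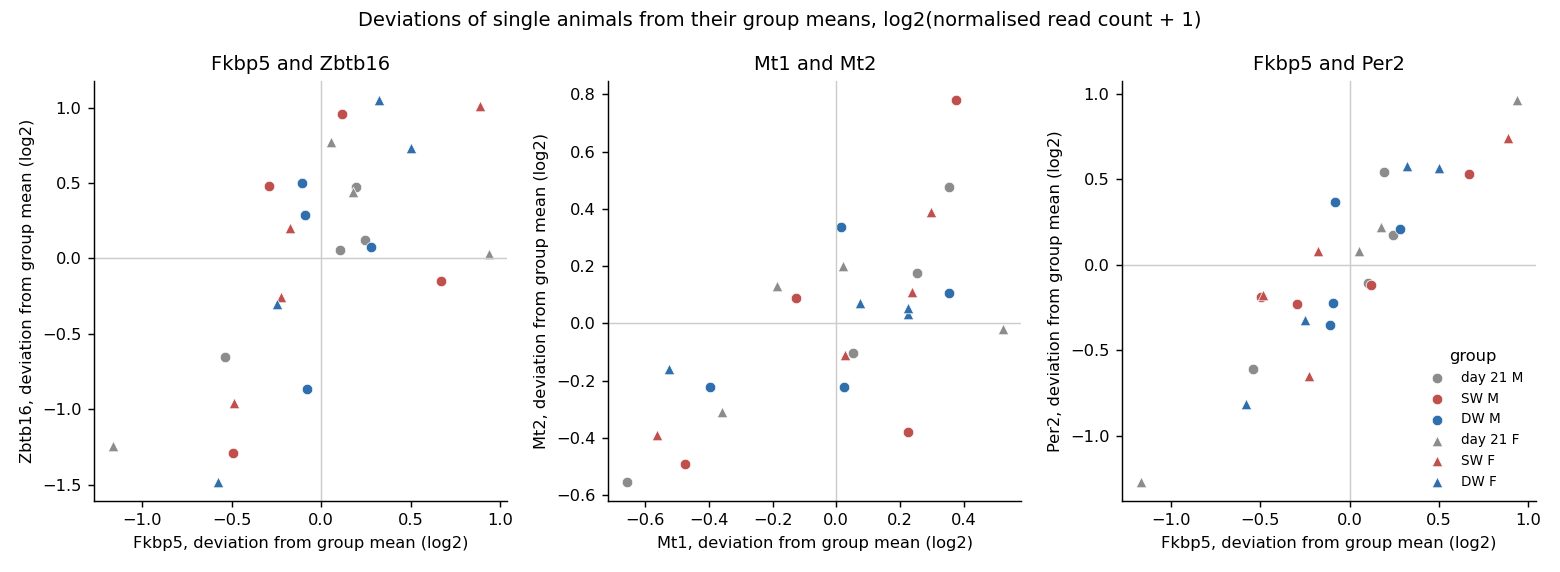
Deviation of each of the 24 animals from its group mean on the log2(normalised read count + 1) scale, for Fkbp5 against Zbtb16, Mt1 against Mt2 and Fkbp5 against Per2, with circles for males and triangles for females. The points rise together in each panel, with r of 0.67, 0.68 and 0.91.

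The genes most alike to each member over the 24 libraries were taken among 9127 genes with a mean of at least 10 normalised read counts. They are a description, since the libraries share groups, depth and base composition. For Fkbp5 they were Map3k6, Slc43a3 and Zhx3, with Pearson r of 0.88, 0.84 and 0.84, and of 0.90, 0.68 and 0.71 with group means removed. For Zbtb16 they were Zhx3, Klf9 and Chst15 (0.86, 0.80 and 0.78), and Klf9, a transcription factor gene, is on the list of other glucocorticoid targets. For Sgk1 they were Cdkn1a, Zfp592 and Plcg1 (0.68, 0.68 and 0.64), of which Cdkn1a is on the same list. For Tsc22d3 they were Sf3a3, Pdcd11 and Prpf3 (0.82, 0.77 and 0.76), and for Nr3c1 Hdgfl3, Rhobtb3 and Prrx1 (0.85, 0.85 and 0.84). For Mt1 they were Dad1, Higd2a and Tspo (0.85, 0.80 and 0.79) and for Mt2 Rnf41, Ccndbp1 and Fgd2 (0.69, 0.66 and 0.65).

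Per2, a core gene of the circadian clock that is also a known glucocorticoid target, was picked out after its values were seen. Its deviations from the group means followed those of Fkbp5 with r of 0.91 over the 24 animals, and of 0.85 without the 2 animals farthest from the median of Fkbp5. In day 21 females, Per2 was 62.9, 12.7, 33.8 and 37.4 in animals 30, 36, 55 and 56, in which Fkbp5 was 91.5, 20.6, 49.2 and 53.7. The order of the 4 animals was the same for both genes. Between the weaning groups Per2 overlapped in both sexes, with means of 14.7 ± 4.33 in SW and 22.0 ± 5.43 in DW males and of 13.4 ± 5.94 in SW and 15.0 ± 6.99 in DW females (SD, n = 4), and it was not called. In SW females Per2 fell by 1.28 from day 21 (SE 0.388, adjusted p = 0.0331, limma), and of the 14 clock genes 1 rose and 5 fell in that comparison, in which 11.6% of all tested genes were called. In DW females 0 rose and 3 fell, beside 12.1% of all tested genes. The day 21 female mean of Per2 was 2.75-fold that of SW females and 2.44-fold that of DW females. The part of the clock genes in the Fkbp5 differences was not tested.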

How the data were processed

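Poly(A) RNA libraries (KAPA mRNA HyperPrep, NovaSeq X Plus, per the labels' protocols) of 24 mice were analysed. The submitters' processing notes name fastp, HISAT2, featureCounts, DESeq2 1.38.3 and the build mm10. The deposited file holds a signal for every gene in every library (the reads over a factor that the authors set per library). Per the file headers it also holds log2 fold changes and adjusted p-values of 15 comparisons, quoted here under the name of the authors' deposited table. Within a tolerance of 0.01, 100% of the deposited values were whole multiples of 1 read, so reads could be recovered. After 90 repeated rows were left out, 16118 genes remained. Deposited gene starts equalled those of GENCODE M21 (GRCm38) for 2.23% of 16095 genes, so positions are from GENCODE M21 and promoters from RefSeq, not from the file.

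The design called for edgeR on counts and for limma on normalised values, and limma 3.58.1 (R 4.3.3) was therefore used on log2(value + 1) with a variance trend, 6 group coefficients and 18 residual degrees of freedom. filterByExpr (minimum count 10) left 16005 genes. Alternatives were edgeR 4.0.16 and DESeq2 1.42.0 on the recovered reads, other scalings, pseudocounts, filters, weights and covariates, and leaving out animals; leaving out DW females 82 and 83, a GC index as covariate and limma without a trend were added after seeing the data. The method was tested on simulated data. Over 36 pairs of animals of 1 group the smallest chi-square per degree of freedom of the reads was 79.52, and none was treated as a repeat of another. Read totals cover the listed genes, and reads may include copies of the same molecule. No animal number occurs in more than 1 group, so nothing was paired. The members and lists were chosen with earlier results of these data known. Genes were named by rule: the 8 members, list genes called between SW and DW, at most 5 list genes with the smallest adjusted p per age comparison, and the 3 genes most alike to each member.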

Additional observations from a re-analysis of the deposited data

Results flagged for a closer look

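In 48 groups of 4 animals (8 genes in 6 groups), 2 held an animal far from the other 3 by Dixon's test, and chance alone flags about 1 in 20 groups, here 2.40. Hsd11b1 was 132 normalised read counts in SW male 124, where the other SW males had 53.9 to 61.6, and the gap was 0.853 of the range of the group against a critical value of 0.83. Fkbp5 was 96.4 in DW male 80, where the other DW males had 73.5 to 75.0, a gap of 0.923 of the range. Without DW male 80 the Fkbp5 difference over both sexes was -0.95 (adjusted p = 0.0772, limma).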

How the results depend on the processing

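The direction of the called differences held in each alternative fit run for them, animals left out included: Fkbp5 over both sexes lay between -1.20 and -0.91, its DW male rise between 1.09 and 1.45, its SW female fall between -1.64 and -0.94, and the 4 rises of Hsd11b1 between 0.61 and 1.32. The counts of members called are given without the share of all genes called in the same fit, and that share moved too. Over the alternative fits, 28 to 979 of all genes were called between SW and DW in males (41 in the reported fit). From day 21 the counts were 416 to 5591 in SW males (1901) and 365 to 6356 in DW males (2395). A higher member count in a fit is therefore not by itself a result about the members. The number of members called moved as follows. With weighted libraries 1 was called between SW and DW in males and 1 in females, 3 from day 21 in SW males, in SW females and in DW males, 2 in DW females and 1 between the sexes in SW animals. With tissue scores as covariates 0 were called over both sexes, 1 from day 21 in SW females, 1 in DW males and 0 between the sexes in DW animals. Without day 21 male 53 and SW male 84, 0 were called over both sexes and 1 in DW males from day 21. Without DW females 82 and 83, 0 were called in DW females from day 21 and 0 between the sexes in DW animals. With the compared groups alone 1 was called between SW and DW in males and 0 between the sexes in DW animals. DESeq2 called 2 between the sexes in DW animals, and the run of animal numbers as a covariate gave 1 in SW animals. That covariate could not be fitted to the age comparisons. With each animal left out in turn, 0 to 1 were called over both sexes, from day 21 1 to 2 in both male comparisons, 0 to 1 in SW females and 0 to 2 in DW females, 0 to 1 and 0 to 2 between the sexes in SW and DW animals, and 0 to 1 for a sex difference in the SW age change.

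Small, uncalled differences changed sign. Between SW and DW in males, Nr3c1 was -0.02 with weighted libraries and Hsd11b1 -0.05 with the run covariate. In females, weighted libraries gave 0.06 for Nr3c1, 0.05 for Hsd11b1 and -0.02 for Mt1, tissue scores gave 0.25 for Hsd11b1, the run covariate gave 0.00 and 0.04 and the GC index 0.09 and 0.01 for Nr3c1 and Hsd11b1. Without DW females 82 and 83 Nr3c1 and Hsd11b1 were 0.13 each, Tsc22d3 -0.05 and Mt1 -0.01. Over both sexes Nr3c1 was -0.01 with edgeR and on TMM-scaled reads and -0.00 without animals 53 and 84, and Hsd11b1 was -0.01 with the run covariate. From day 21 in SW males, Zbtb16 and Mt2 were 0.09 and 0.01 with edgeR, 0.11 and 0.02 with DESeq2 and with DESeq2 size factors, and 0.20 and 0.24 with tissue scores. Zbtb16 was 0.17 with weighted libraries there, and Mt2 was 0.25 without animals 53 and 84. Tissue scores gave 0.00 for Nr3c1 in SW females, 0.04 in DW females and 0.19 for Mt1 in DW males, which was 0.05 without animals 53 and 84. In DW females Fkbp5 and Zbtb16 were 0.07 and 0.21 with weighted libraries and 0.01 and 0.64 without animals 82 and 83.

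With each animal left out in turn, the following uncalled differences crossed 0. Between SW and DW, Nr3c1 ran from -0.02 to 0.08 in males, -0.10 to 0.06 in females and -0.03 to 0.05 over both sexes. Hsd11b1 ran from -0.02 to 0.40, -0.09 to 0.12 and -0.01 to 0.20, and Tsc22d3 in females from -0.11 to 0.24. From day 21 in SW males, Fkbp5 ran from -0.06 to 0.32, Zbtb16 from -0.38 to 0.37 and Mt2 from -0.30 to 0.13, and Nr3c1 in SW females from -0.10 to 0.00. Mt1 in DW males ran from -0.29 to 0.06. In DW females Nr3c1 ran from -0.11 to 0.04, Zbtb16 from -0.67 to 0.24, Mt1 from -0.11 to 0.18 and Mt2 from -0.01 to 0.15. The cause of these shifts was not tested.

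Counts over all genes moved as well. Over the alternative fits, 28 to 979 genes were called between SW and DW in males (41 in the reported fit), 1 to 541 in females (204) and 168 to 2315 over both sexes (353). From day 21 the counts for males were 416 to 5591 after separation (1901) and 365 to 6356 with the mother (2395), and those for females 468 to 3878 (1860) and 486 to 5509 (1938). Between the sexes they were 4 to 517 at day 21 (57), 10 to 955 in SW (567) and 5 to 1703 in DW animals (394), and 0 to 4 (3) and 4 to 823 (165) for the sex differences of the weaning and age effects. With 4 animals a group the SE of a member's log2 difference was 0.126 to 0.544, and Mt2, read 79 to 614 times, was the member with the fewest reads. No paired analysis was possible because animal numbers differ between the groups.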
